A study of Mus musculus with 12 samples.

Results

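The endoplasmic reticulum (ER) is where secreted and membrane proteins enter the secretory route and fold, and 34 mouse genes of its folding and quality control system are described here in leukaemia lines labelled as expressing Bcl11a or not. The genes were chosen by their known function, as chaperones, disulfide isomerases, sensors and transcription factors of the unfolded protein response, degradation factors and subunits of the protein-conducting channel. Each was measured by 1 array probe set annotated to that gene alone, the one with the highest mean over the 12 arrays. Of the 34 genes, 33 had such a probe set and all 33 were among the 11223 genes tested; Vcp, the ATPase that pulls condemned proteins out of the membrane, was not analysed here.

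Total RNA came from mouse acute myeloid leukaemia (AML) cells, cultured with interleukin-3 and otherwise untreated. The TB14 and TB13 lines are labelled as expressing Trib1 together with Bcl11a, and the label of the Trib1 line names Trib1 alone, so Trib1 is common to all 3 lines. Each line was measured on 4 arrays. The labels give neither the clonal origin of the lines nor whether the 4 arrays of a line came from separate cultures, so p-values rest on array-to-array spread, possibly technical, and not on the spread between independently made lines. Bcl11a encodes a zinc finger repressor, and Trib1 a pseudokinase that recruits a ubiquitin ligase to C/EBPalpha, a factor of myeloid differentiation.

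Proteins that enter the ER are held by chaperones, cross-linked by disulfide isomerases and, where glycosylated, retained by lectins until folded. When unfolded proteins build up, the sensors IRE1 (encoded by Ern1), ATF6 and PERK start the unfolded protein response: IRE1 splices the mRNA of the transcription factor XBP1, ATF6 is cut to release a transcription factor, and PERK slows translation. XBP1 and ATF6 are known to raise transcription of chaperones, isomerases and degradation factors, many of them through a promoter motif called the ER stress response element (ERSE). Myeloid progenitors rely on this system to make granule proteins and surface receptors.

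The deposited intensities of the TB13 arrays were on another scale than those of the other 8 arrays. Their medians were higher (25.5 to 25.9 against 20.8 to 21.4 units) and their upper quartiles lower (71.8 to 72.5 against 102 to 109). The arrays thus did not differ by a single factor, and the difference varied with intensity. The 18 hybridization controls, transcripts added in equal amounts before hybridization, differed from the Trib1 line by a median log2 value of 0.0012 in TB14 and -1.11 in TB13, where 17 of 18 were lower. The intensities were therefore set to a common distribution over arrays (quantile scaling), and TB13 results are also set against the values as deposited and those calibrated on these controls. Correlations across genes were at least 0.9946 between arrays of a line and at most 0.989 between lines. The 4 probe sets of Bcl11a lay at 6.70 to 21.5 deposited units over all arrays, within or below the range of the array medians (20.8 to 25.9), and the 2 of Trib1 at 14.4 to 40.1. These dim values did not show the expression of Bcl11a that the labels state, and did not check the labels. All 9 haematopoietic markers passed the filter on dim values, with scaled intensities of 1282, 1647 and 1848 for Ptprc (CD45) in TB14, TB13 and Trib1. Mpo, the granule enzyme myeloperoxidase, averaged 2214, 1044 and 195 in the same order. Most of these markers went the other way: in each Bcl11a line 2 of the 9 had log2 differences to Trib1 above 0 and 7 below. Csf1r averaged 53.7, 75.1 and 137, and Itgam 132, 30.3 and 224, in TB14, TB13 and Trib1.

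A set of 3 promoter motifs known from this pathway was searched on both strands of RefSeq promoter windows of build GRCm38.p6, which run from 250 bases before to 50 bases after a transcript start. The ERSE (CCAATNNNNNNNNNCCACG) was found in 9 of 28 genes of the group with a window, 32.1%, against 37 of 27025 genes with a window, the 9 included. By window it was in 39 of 32851, 0.119%. ERSE-II (ATTGGNCCACG) was found in Dnajb11 and Herpud1, and in 12 windows of all genes, 0.0365%. The short UPRE (TGACGTGG) was found in Txndc5 and Vcp, and in 222 windows, 0.676%. No gene of the group held more than 1 kind of motif, and no match says only that these letters are not in the window. The matches are printed because they are the sequence feature that members of different roles share; capitals mark the fixed letters of each motif, and the strand shown is the one that reads the motif forward.
ERSE matches follow.
Hspa5 (chr2:34772015-34772053, plus strand): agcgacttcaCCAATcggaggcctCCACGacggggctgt
Hsp90b1 (chr10:86705523-86705561, plus strand): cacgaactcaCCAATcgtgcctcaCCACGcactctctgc
Hsp90b1 (chr10:86705628-86705666, minus strand): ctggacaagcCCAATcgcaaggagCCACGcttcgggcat
Dnajc3 (chr14:118937817-118937855, plus strand): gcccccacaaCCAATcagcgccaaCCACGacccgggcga
Creld2 (chr15:88819510-88819548, minus strand): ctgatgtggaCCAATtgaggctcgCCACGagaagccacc
Calr (chr8:84847065-84847103, plus strand): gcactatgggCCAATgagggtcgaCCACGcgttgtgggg
Canx (chr11:50325790-50325828, minus strand): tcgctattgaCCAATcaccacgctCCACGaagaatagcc
Pdia6 (chr12:17266481-17266519, plus strand): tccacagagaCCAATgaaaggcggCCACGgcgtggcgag
Syvn1 (chr19:6046522-6046560, plus strand): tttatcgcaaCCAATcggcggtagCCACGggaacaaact
Derl3 (chr10:75893232-75893270, minus strand): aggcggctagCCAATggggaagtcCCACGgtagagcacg
The ERSE-II of Herpud1 and the UPRE of Txndc5 are these.
Herpud1 (chr8:94386367-94386397, plus strand): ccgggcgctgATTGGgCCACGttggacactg
Txndc5 (chr13:38528035-38528062, minus strand): gcctcgccgcTGACGTGGcgctagccgc
The chaperone and co-factor genes Hspa5, Hsp90b1, Dnajc3 and Creld2, the lectin genes Calr and Canx, the isomerase gene Pdia6 and the degradation genes Syvn1 and Derl3 thus share the same pair of boxes at the same spacing, and Hsp90b1 holds it in 2 places. Every printed match lies before the transcript start, its near end 25 to 193 bases away.

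All 33 genes lay above the median of every array, 22.7 scaled units, although Pdia3 and Derl3 came closest to it, at 37.2 to 78.7 and 31.1 to 89.9 units. Brightness depends on the probes, so intensities of different genes are not compared as amounts. The spread over the 4 arrays of a line was small: the median coefficient of variation of a member was 1.80% in TB14, 4.37% in TB13 and 2.12% in Trib1. TB13 had the widest spread of a single member, 33.9% for Pdia3, where 1 array of 4 read 78.7 and the others 41.2 to 47.0.

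**Figure D1:**
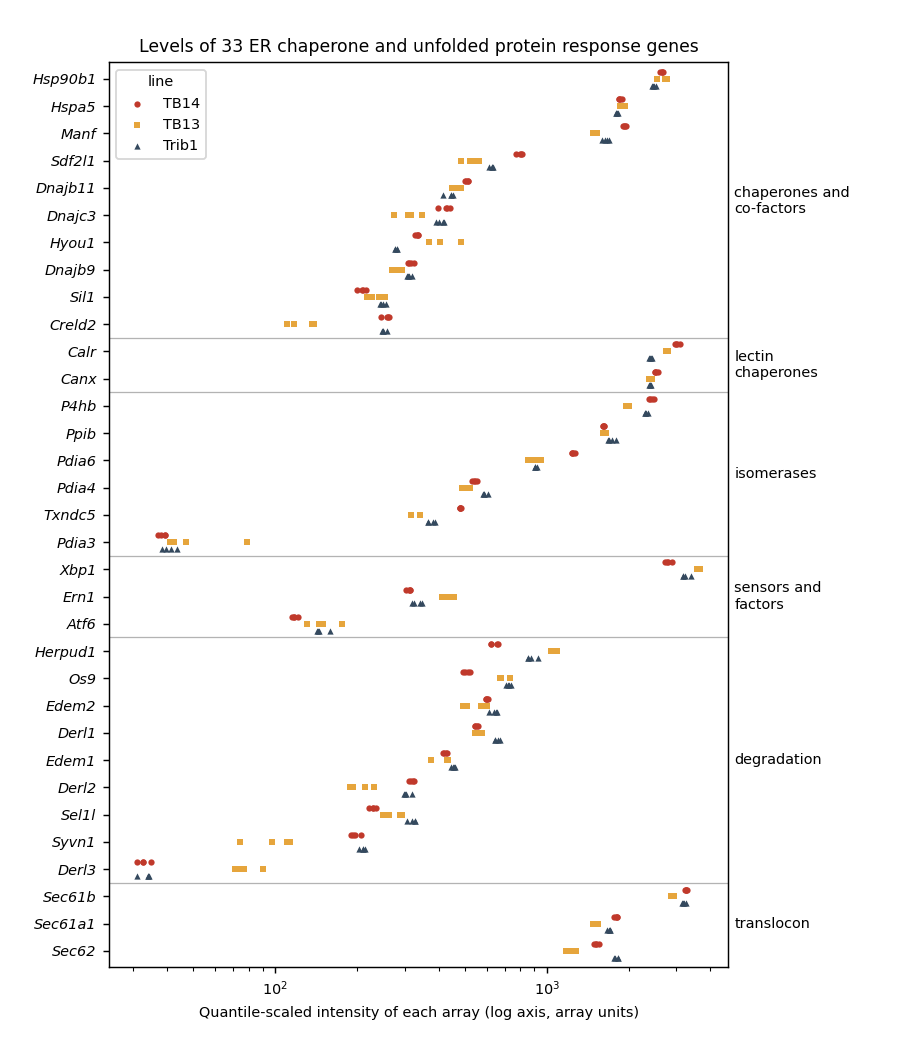
Quantile-scaled intensity (array units, log axis) of the 33 measured genes, grouped by role, with 1 point per array for TB14 (circles), TB13 (squares) and Trib1 (triangles). Most genes keep their 3 lines close together, while Creld2, Syvn1, Derl2 and Derl3 show TB13 arrays away from the arrays of both other lines.

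The first comparison asked how TB14, a line with Bcl11a, differed from the Trib1 line. In TB14 cells more folding genes were higher than lower, while the called sensing and degradation genes were all lower. Calreticulin, several isomerases and several BiP co-factors were higher by up to 1.37-fold, while Atf6, Xbp1 and 4 degradation genes were lower by up to 1.42-fold. A gene was called higher or lower where its Benjamini-Hochberg adjusted p over all 11223 genes was under 0.05 in limma. Of the 33 genes, 11 were called higher, 11 lower and 11 not called, against 23.0% of all genes called higher and 20.9% lower (43.8% in either direction). The median log2 difference was 0.017 over the 33 genes and -0.0049 over all genes. None of the 33 was past 2-fold, which 2.53% of all genes were, and for 25 of the 33 the TB14 and Trib1 arrays did not overlap, as for 55.9% of all genes. In bulk RNA, fewer cells with a transcript and less of it per cell cannot be told apart.

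Among the chaperones and co-factors of BiP, 5 of 10 were higher, 1 was lower and 4 were not called. Sdf2l1, which works with the co-chaperone ERdj3 on unfolded clients, read 808, 806, 794 and 768 on the TB14 arrays, against 632, 628, 612 and 627 on the Trib1 arrays. All 4 TB14 arrays lay above all 4 Trib1 arrays, and the log2 difference was 0.34 (SE 0.036, adjusted p = 5.84e-07). Hyou1, a large chaperone that also exchanges the nucleotide of BiP, read 335, 334, 336 and 327 in TB14, against 276, 277, 281 and 282 in Trib1. The groups did not overlap, and the log2 difference was 0.25 (SE 0.056, adjusted p = 0.00156). The BiP partner Manf differed by 0.23, the ERdj3 gene Dnajb11 by 0.20 and Hsp90b1, the Hsp90 chaperone of the ER, by 0.096 on the log2 scale. Sil1, another nucleotide exchange factor of BiP, was the member of this role that fell, at 209, 216, 211 and 201 in TB14 and 251, 245, 243 and 255 in Trib1, a log2 difference of -0.24.

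Hspa5, the gene of BiP itself and the central chaperone of the ER, was not called. It read 1896, 1849, 1861 and 1842 in TB14, against 1809, 1803, 1801 and 1832 in Trib1, so the groups did not overlap but differed by only 0.039 on the log2 scale (adjusted p = 0.0559). Dnajc3, Creld2 and Dnajb9, all known as induced by ER stress, had log2 differences of 0.058, 0.026 and 0.017, with adjusted p-values of 0.458, 0.784 and 0.761.

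Both lectin chaperones were higher in TB14. Calr, which encodes calreticulin, the soluble lectin that retains unfolded glycoproteins, read 2961, 3015, 3102 and 2984 in TB14, against 2427, 2401, 2375 and 2436 in Trib1. The 2 sets of arrays were far apart for their spread, with a log2 difference of 0.32 (SE 0.015, adjusted p = 1.85e-11). Its membrane-bound relative Canx differed by 0.073 (adjusted p = 0.000206).

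Of the 6 isomerases, 3 were higher, 2 lower and 1 not called. Pdia6, a disulfide isomerase, had the highest log2 difference of the group: it read 1246, 1272, 1243 and 1234 in TB14, against 904, 923, 904 and 901 in Trib1. That was a log2 difference of 0.45 (SE 0.026, adjusted p = 2.56e-10) or 1.37-fold. Txndc5, a thioredoxin-domain isomerase, read 481, 481, 484 and 479 in TB14, against 365, 388, 364 and 382 in Trib1, a log2 difference of 0.35. In both genes every TB14 array exceeded every Trib1 array. P4hb, the classical protein disulfide isomerase, was higher by only 0.064. The remaining isomerases did not follow, as Pdia4 (-0.13) and the proline isomerase gene Ppib (-0.092) were lower, and Pdia3, the partner of the lectins, was dim and not called (-0.060).

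The 3 genes of the sensing arms were lower after quantile scaling, Xbp1 and Atf6 also under the other scalings. Xbp1 read 2713, 2773, 2800.1 and 2891 in TB14, against 3212, 3167, 3390.2 and 3175 in Trib1, with no overlap and a log2 difference of -0.21 (SE 0.021, adjusted p = 2.66e-07). The annotation used here does not tell the spliced form of Xbp1 mRNA from the unspliced one. Xbp1 had 4 probe sets, and the other 3 were also lower in TB14, at -0.17, -0.21 and -0.22 on the log2 scale. Atf6 averaged 118 ± 2.35 in TB14 and 148 ± 7.90 in Trib1 (SD, n = 4 each), a log2 difference of -0.30. Ern1 averaged 310.5 ± 5.48 in TB14 and 333 ± 13.3 in Trib1, a log2 difference of -0.098 (adjusted p = 0.0378). Ern1 was not called as deposited (adjusted p = 0.117), after calibration (adjusted p = 0.341) or with each of 6 arrays left out in turn (highest adjusted p = 0.131). The other probe set of Atf6 differed by 0.034, and of the 4 other ones of Ern1, 2 were above 0 (0.031 and 0.024).

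Degradation genes carried the lowest log2 differences of the group, with 4 of 9 lower and 5 not called. Os9, a lectin that hands trimmed glycoproteins to the ubiquitin ligase complex, read 502, 512, 520.1 and 491 in TB14, against 705, 729, 719.7 and 742 in Trib1. Sel1l, the adaptor of that complex, read 222, 236, 229 and 229 in TB14, against 319, 306, 326 and 326 in Trib1. Herpud1, a stress-induced membrane protein that organises the complex, read 657, 663, 622 and 624 in TB14, against 853, 852, 927 and 878 in Trib1. None of these groups overlapped, and the log2 differences were -0.51, -0.46 and -0.44 in that order, with standard errors of 0.031, 0.046 and 0.030 and adjusted p-values of 5.73e-10, 2.67e-07 and 2.19e-09. Derl1, a derlin of the channel through which proteins leave the ER, read 553, 556, 545 and 542 in TB14, against 644, 644, 659 and 672 in Trib1, a log2 difference of -0.25. The ligase gene Syvn1, the mannosidase-related Edem1 and Edem2 and the derlins Derl2 and Derl3 were not called, with log2 differences of -0.090, -0.098, -0.084, 0.061 and -0.016.

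The 3 channel genes split. Sec61a1, the pore subunit, was higher by 0.083, Sec61b was not called (0.024, adjusted p = 0.131), and Sec62, which serves the entry of short proteins, was lower by a log2 difference of -0.25, at 1559, 1513, 1487 and 1512 in TB14 and 1789.7, 1768, 1825 and 1825 in Trib1.

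Under all 3 scalings the same 11 genes were called higher (21.5% of all genes were), and 8 of the 11 lower genes stayed called (17.6% of all genes), Pdia4, Ern1 and Ppib being lost with calibration on the controls and Ern1 also as deposited. With the TB13 arrays left out of the fit, 13 were called higher and 14 lower, beside 3564 and 3328 of all 11223 genes. Where a gene's probe sets were averaged, 7 were lower, beside 2252 of all 11223 genes. Other probe sets of Ern1, Atf6, Sel1l and Sec62 went the other way. The 4 other probe sets of Sel1l differed by 0.038, 0.22, -0.094 and 0.094.

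**Figure D2:**
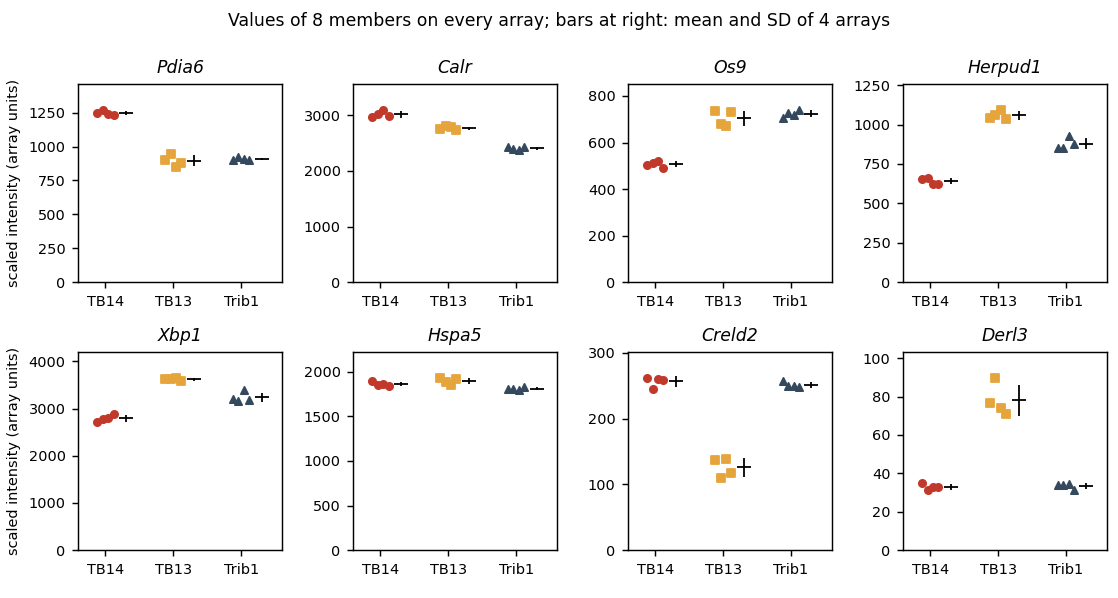
Scaled intensity (array units, linear axis from 0) of 8 genes on every array of TB14, TB13 and Trib1, with the mean and SD of the 4 arrays at the right of each group. TB14 stands above the other lines in Pdia6 and Calr and below them in Os9, Herpud1 and Xbp1, Hspa5 differs little, and TB13 stands apart in Creld2 and Derl3.

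The second comparison set TB13, the other line with Bcl11a, against the Trib1 line, where many more genes of every kind differed. In TB13 cells several chaperone, isomerase, degradation and channel genes were lower, Creld2 and Syvn1 having the lowest log2 differences after quantile scaling, while Derl3, Xbp1 and Calr were higher. After quantile scaling 8 of 33 genes were called higher, 18 lower and 7 were not called, against 42.0% and 38.3% of all genes (80.3% in either direction), so a call by itself did not set these genes apart. The median log2 difference was -0.12 over the 33 genes and 0.025 over all genes. The counts followed the scaling: 4 were higher and 28 lower with the values as deposited (29.0% and 63.6% of all genes), and 13 higher and 9 lower after calibration on the controls (73.8% and 11.4%), with medians over all genes of -0.39 and 0.51. The TB13 and Trib1 arrays did not overlap for 26 of the 33 genes, as for 71.5% of all genes. Called the same way under all 3 scalings were Calr, Xbp1 and Derl3 (higher) and Dnajc3, Sdf2l1, Creld2, P4hb, Pdia4, Syvn1, Derl2, Sec61b and Sec62 (lower). By the same criterion 24.6% of all genes were higher and 11.0% lower. After calibration, however, the median log2 difference was 0.024 over the 33 genes and 0.51 over all genes. Among 6895 genes kept by a stricter filter on dim values, 2523 were higher and 3056 lower after quantile scaling. Most of the 33 genes were bright. Shares under all 3 scalings among genes of like brightness were not computed, here or in the later comparisons.

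Creld2, a stress-induced protein that assists disulfide formation, read 136, 110.3, 139 and 118 in TB13, against 258, 249.6, 250.4 and 248 in Trib1. Every TB13 array lay below every Trib1 array, with log2 differences of -0.94 (SE 0.059, adjusted p = 3.54e-10) after quantile scaling, -1.58 as deposited and -0.48 calibrated. Dnajc3, a co-chaperone of BiP, read 348, 274, 309 and 317 in TB13, against 416, 419, 399.7 and 389.9 in Trib1, with -0.37, -1.13 and -0.19 on the same 3 scales. Its 4 other probe sets were lower as well, at -0.41, -0.54, -1.58 and -0.86. Sdf2l1 read 523, 547, 484 and 562 in TB13, against 632, 628, 612 and 627 in Trib1, a log2 difference of -0.24 that stayed below 0 at -0.90 and -0.12.

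Hyou1 went the other way after quantile scaling, at 403, 483, 369 and 405 in TB13 and 276, 277, 281 and 282 in Trib1, a log2 difference of 0.55. As deposited the same gene was lower (-0.20), and its 2 other probe sets differed by 0.32 and -0.48, so its direction in TB13 depended on the scale and the probe set. Hspa5 (0.068) and Hsp90b1 (0.12) were called higher and Manf (-0.12) and Dnajb9 (-0.13) lower after quantile scaling, and each lost the call or turned under another scaling. Dnajb11 (0.066) and Sil1 (-0.078) were not called.

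Calr was higher in TB13 as in TB14, at 2747, 2800.1, 2784 and 2738 in TB13 and 2427, 2401, 2375 and 2436 in Trib1. Its log2 difference was 0.20 (SE 0.015, adjusted p = 4.63e-09), 0.093 as deposited and 0.21 calibrated, and its second probe set gave 0.19. Canx was not called (-0.0016). Of the isomerases, P4hb averaged 1995 ± 24.2 in TB13 and 2319 ± 32.3 in Trib1 (SD, n = 4 each), with log2 differences of -0.22, -0.38 and -0.17. Pdia4 differed by -0.24, -0.92 and -0.12 on the same scales. Txndc5 (-0.18) and Ppib (-0.075) were lower after quantile scaling and not called after calibration, and Pdia6 (-0.022) and Pdia3 (0.25) were not called.

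Xbp1 read 3627, 3637, 3659 and 3585 in TB13, against 3212, 3167, 3390.2 and 3175 in Trib1, so all TB13 arrays were above the Trib1 arrays. The log2 difference was 0.16 (SE 0.021, adjusted p = 2.20e-06), 0.12 as deposited and 0.100 calibrated, and its 3 other probe sets gave 0.21, 0.33 and 1.12. Ern1 read 409.9, 455, 427 and 435 in TB13, against 319, 326, 347 and 342 in Trib1, a log2 difference of 0.36 after quantile scaling but -0.37 as deposited. Atf6 was not called (0.020).

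Syvn1, the gene of the ubiquitin ligase Hrd1, read 114, 111, 97.2 and 74.1 in TB13, against 214, 211, 211 and 203 in Trib1, a log2 difference of -1.01 (SE 0.088, adjusted p = 2.17e-08). After quantile scaling it was the member past 2-fold, as were 9.27% of all genes, but its log2 difference was -1.56 as deposited and -0.43 calibrated, and its second probe set differed by only -0.024. As deposited 4 members were past 2-fold lower, beside 1660 of all 11223 genes. After calibration 2 members were past 2-fold higher and 0 lower, beside 3799 and 62 of all 11223 genes. Derl2 read 215, 232, 193 and 188 in TB13, against 303, 299, 300.0 and 319 in Trib1, with log2 differences of -0.54, -1.30 and -0.27, and its second probe set gave -0.76. Derl3, the derlin most tied to secretory cells, ran opposite to Derl2 at 76.6, 89.9, 74.3 and 71.1 in TB13 and 33.9, 34, 34.5 and 31.1 in Trib1. Its values were dim, and its log2 differences were 0.97 (adjusted p = 7.30e-10), 0.76 and 1.85. Herpud1 read 1039, 1063, 1095 and 1033 in TB13, against 853, 852, 927 and 878 in Trib1, 0.27 after quantile scaling and -0.16 as deposited. Sel1l (-0.22), Edem1 (-0.12), Edem2 (-0.23) and Derl1 (-0.21) were lower after quantile scaling and not called after calibration, and Os9 was not called (-0.040).

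All 3 channel genes were lower in TB13. Sec62 read 1172, 1285, 1283 and 1220.1 in TB13, against 1789.7, 1768, 1825 and 1825 in Trib1, with log2 differences of -0.54 (SE 0.026, adjusted p = 1.35e-11), -0.85 and -0.46. Sec61b differed by -0.14, -0.22 and -0.17, while Sec61a1 (-0.17) was not called after calibration (-0.067). Of the 16 called genes with further probe sets, 8 had at least 1 that went the other way.

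**Figure D3:**
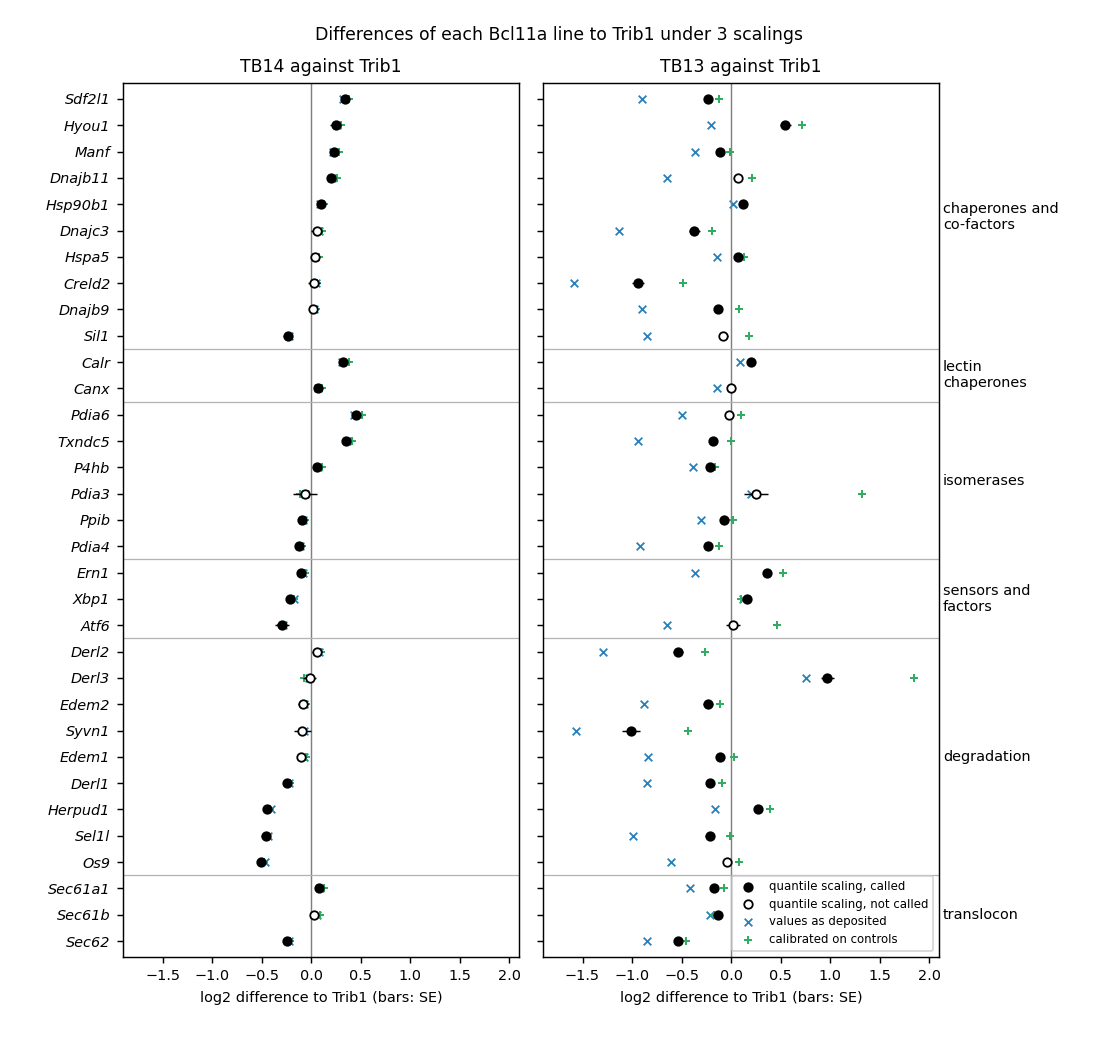
Log2 difference to the Trib1 line of the 33 genes in TB14 (left) and TB13 (right), with the standard error; filled circles were called after quantile scaling, open circles were not, crosses are the values as deposited and plus signs those calibrated on the hybridization controls. In TB14 the 3 scalings nearly coincide, with folding genes mostly right of 0 and sensors and degradation genes mostly left, whereas in TB13 the scalings lie far apart.

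The third comparison tested whether the 2 lines with Bcl11a differed from each other. All 3 channel transcripts were higher in TB14 cells than in TB13 cells under every scaling. Of the 10 chaperone and co-factor genes 6 were higher after quantile scaling and 4 after calibration, and of the 6 isomerase genes 4 and 3, while the 3 sensor genes were lower after quantile scaling. With that scaling, 18 of 33 genes were higher in TB14, 10 lower and 5 not called, against 39.0% and 41.1% of all genes (80.1% in either direction). The same direction under all 3 scalings was called for 14 of the higher genes (12.7% of all genes) and 4 of the lower ones (24.7% of all genes), namely Pdia3, Xbp1, Herpud1 and Derl3. Of these, Pdia3 was dim, with 1 TB13 array at 78.7 and the others at 41.2 to 47.0. After quantile scaling it lost the call without some arrays (highest adjusted p = 0.0593 in limma). Calibration gave a median over all genes of -0.51 in this contrast, and shares among genes of like brightness were not computed. The arrays of the lines did not overlap for 27 of 33 genes, as for 72.1% of all genes.

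The highest log2 differences after quantile scaling were those of Creld2, which averaged 257 ± 8.20 in TB14 and 126 ± 14.0 in TB13 (SD, n = 4 each), and of Syvn1, at 197 ± 7.53 in TB14 and 99.0 ± 18.1 in TB13. Their log2 differences were 0.96 (SE 0.059, adjusted p = 2.65e-10) and 0.92 (SE 0.088, adjusted p = 6.82e-08). They were 1.63 as deposited and 0.54 calibrated for Creld2, and 1.49 and 0.35 for Syvn1, whose second probe set went the other way at -0.084. Derl2 followed with 0.60, Sdf2l1 with 0.58, Txndc5 with 0.53, Pdia6 with 0.48 and Dnajc3 with 0.43, and in each of them the lowest TB14 array lay above the highest TB13 array. Manf (0.34), Sec62 (0.29), P4hb (0.28), Sec61a1 (0.25), Sec61b (0.16), Calr (0.12) and Canx (0.074) completed the 14 that held under all scalings. Dnajb9, Dnajb11, Pdia4 and Edem2, at 0.15, 0.14, 0.11 and 0.15, lost the call after calibration.

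On the lower side, Derl3 averaged 32.9 ± 1.56 in TB14 and 78.0 ± 8.27 in TB13, a log2 difference of -0.99 (SE 0.064, adjusted p = 6.04e-10). Herpud1 averaged 642 ± 21.6 in TB14 and 1058 ± 28.0 in TB13, a log2 difference of -0.71 (SE 0.030, adjusted p = 3.76e-12), with -0.25 as deposited and -0.81 calibrated. Xbp1 differed by -0.37, -0.30 and -0.28, and its 3 other probe sets were lower in TB14 too. Os9 (-0.47), Ern1 (-0.46), Atf6 (-0.32), Hyou1 (-0.30), Sel1l (-0.24) and Sil1 (-0.16) were lower after quantile scaling but higher as deposited. Of the 15 called genes with further probe sets, 6 had at least 1 that went the other way: Hyou1, Ern1, Atf6, Syvn1, Sel1l and Sec61a1. The second probe set of Atf6 gave 0.58, and a dim one of Ern1 gave 0.27. Hspa5 (-0.029) and Hsp90b1 (-0.025) were not called.

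In the lines, 8 of 33 genes were called in opposite directions when each was set against the same Trib1 arrays, beside 11.6% of all genes. Sdf2l1, Manf, P4hb, Txndc5 and Sec61a1 were higher in TB14 and lower in TB13, and Ern1, Xbp1 and Herpud1 were lower in TB14 and higher in TB13. These directions are those of the probe sets used. In TB13 against Trib1 the second probe set of Txndc5 gave 0.25 and that of Herpud1 0.0093. The other ones of Sec61a1 gave -0.068, 0.21 and -0.30, and a dim one of Ern1 gave -0.24. Among the 8 genes, Sdf2l1, P4hb and Xbp1 were called in opposite directions under all 3 scalings, as were 2.01% of all genes. For Xbp1 this means 2794 units in TB14 and 3627 in TB13 around 3236 in the Trib1 line.

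Taking the lines with Bcl11a as 1 group, 11 of 33 genes were higher than in the Trib1 line and 18 lower, against 38.6% and 31.7% of all genes (70.2% in either direction). Higher under all 3 scalings were Hsp90b1 (0.11), Calr (0.26) and Derl3 (0.48), and lower were Creld2 (-0.46), Pdia4 (-0.18), Syvn1 (-0.55), Sel1l (-0.34), Derl1 (-0.23), Os9 (-0.27) and Sec62 (-0.39), all as log2 differences, beside 22.7% of all genes higher and 12.5% lower by this criterion. The mean hides unlike lines: Derl3, Creld2 and Syvn1 differed from Trib1 in TB13 and were not called in TB14. Calr was called higher and Sec62 lower in each line by itself under all 3 scalings, with no overlap between the 8 arrays of the lines and the Trib1 arrays. For Sec62 in TB14 this rested on its bright probe set: the 3 others, all dim, differed by 0.33, 0.021 and 0.013. The mean over its probe sets that passed the filter on dim values differed by 0.044. Hsp90b1, higher in both lines after quantile scaling, averaged 2644 ± 22.5 in TB14, 2692 ± 102 in TB13 and 2473 ± 38.5 in Trib1 (SD, n = 4 each). As deposited its TB13 difference was 0.016 and not called (adjusted p = 0.472 in limma). Its second probe set, also bright, gave 0.31 in TB14 and -0.035 in TB13. When line means served as single samples, the limma fit called 0 of the 33 genes in either direction, and 27 genes higher and 92 lower of all genes.

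The 9 genes with an ERSE in their promoter window did not move as a block. In TB14 against Trib1, 4 were called higher (Hsp90b1, Calr, Canx and Pdia6) and 5 were not called, with a median log2 difference of 0.058; 23.0% of all genes were higher and 20.9% lower. Of the 18 measured genes with a window and no ERSE, 4 were higher and 8 lower, with a median of -0.088. In TB13 against Trib1 after quantile scaling, 4 of the ERSE genes were higher (Hspa5, Hsp90b1, Calr and Derl3), 3 lower (Dnajc3, Creld2 and Syvn1) and 2 not called. Their median was -0.0016, and the counts were close to the 42.0% of all genes higher and 38.3% lower. Derl3 and Creld2, which share the boxes printed above, thus had log2 differences of 0.97 and -0.94 in TB13. The TB13 counts followed the scaling. As deposited Hspa5 (-0.14), Canx (-0.15) and Pdia6 (-0.50) were called lower and Hsp90b1 (0.016) was not called. After calibration Pdia6 was called higher (0.098). These counts are a description, since the genes were chosen with results known.

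Other genes of the pathway were counted in 4 lists of 103 genes, of which 92 were tested. In TB14 against Trib1, 23 were higher and 27 lower, against 23.0% and 20.9% of all genes, so the higher share was near that of all genes. The list of the PERK arm and related transcription factors had 5 of 12 genes lower and 7 not called, the oxidation and folding list 12 of 33 higher and 8 lower, the degradation list 2 of 22 higher and 9 lower, and the translocation and glycosylation list 9 of 25 higher and 5 lower. The medians were -0.10, 0.064, -0.031 and 0.039 in that order, beside -0.0049 over all genes.

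Ddit3, which encodes the PERK-arm factor CHOP, stood out in size, averaging 138 in TB14, 654 in TB13 and 307 in Trib1. Its log2 difference to Trib1 was -1.08 in TB14 (SE 0.036, adjusted p = 1.65e-13) and 1.06 in TB13 (SE 0.036, adjusted p = 1.71e-13), with 0.43 as deposited and 1.23 calibrated in TB13. Between the lines it was -2.14, again lower in TB14. Xbp1 had the same order of the lines under all 3 scalings. Herpud1 had it after quantile scaling and calibration, but as deposited it was lower in TB13 than in Trib1 (-0.16). The second probe set of Herpud1 differed by only 0.0093 between TB13 and Trib1. Ppp1r15a, the phosphatase subunit induced by CHOP that restores translation, was lower in TB14 than in Trib1 by a log2 difference of -0.53. Eif2ak3, the gene of PERK itself, was lower in TB13, at -0.94, -1.40 and -0.25 on the 3 scales.

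In TB14 the oxidation and folding list was led by the cargo receptor subunit Mcfd2 (0.50) and the glucosidase genes Mogs (0.33) and Ganab (0.29), all higher, and by the oxidase gene Ero1a, which was lower (-0.38). Edem3, a relative of Edem1 and Edem2, was higher by 0.70, while the Os9-like lectin gene Erlec1 (-0.41) and the deglycosylase gene Ngly1 (-0.33) were lower. Of the oligosaccharyltransferase, Rpn1 (0.33), Ost4 (0.31) and Tusc3 (0.31) were higher, and the translocon-associated Ssr4 was lower (-0.36). In TB13 against Trib1, 25 of the 92 genes were higher and 52 lower after quantile scaling (42.0% and 38.3% of all genes), 6 and 80 as deposited (29.0% and 63.6%), and 45 and 23 after calibration (73.8% and 11.4%). In TB14 against TB13, 46 were higher and 27 lower after quantile scaling (39.0% and 41.1% of all genes), 80 and 8 as deposited (63.4% and 29.4%), and 26 and 45 after calibration (13.1% and 71.3%).

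Markers of other cell types were read because secretory cells express this system strongly. Of 10 plasma and B cell markers, 7 had a probe set and 2 passed the filter on dim values, Cd79a and Ms4a1. Their summed intensity was 118 to 123 in TB14, 149 to 164 in TB13 and 119.5 to 125 in Trib1, and Jchain stayed at 8.91 to 12.7 units, below the array median. Of 7 stromal markers 2 passed, with sums of 148 to 156 in TB14, 139.7 to 157 in TB13 and 149 to 163 in Trib1, and Col1a1 stayed at 7.81 to 8.75. Of 6 mast cell markers 5 passed, with sums of 8722 to 8825 in TB14, 7518 to 7828 in TB13 and 8226 to 8312 in Trib1, most of it Cpa3. The single mast cell markers differed between the lines: Ms4a2 averaged 550 in TB14, 341 in TB13 and 70.4 in Trib1, Fcer1a 128, 363 and 419, Cma1 40.6, 40.1 and 95.4, and Mcpt8 1833, 842 and 1671 in the same order. The sums of the 9 haematopoietic markers were 7707 to 7758 in TB14, 6510.3 to 6707 in TB13 and 6562 to 6685 in Trib1. The part of these markers in the differences above was not tested.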

How the data were processed

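Total RNA of 3 mouse AML lines, 4 arrays each, was measured with biotin-labelled cRNA. The deposited values are linear intensities that the authors made with MAS5, per the submitters' processing notes; the sources used here give no version, scaling target or background step. Gene names came from the platform annotation: 28898 of the 45037 probe sets that are not controls had 1 gene, 551 several and 15588 none.

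Intensities were quantile-scaled over the 45037 probe sets and taken to log2(value + 12.7), 12.7 being the 25th percentile of the deposited values, so fold changes of dim genes are understated. Probe sets above the array median on at least 4 of 12 arrays were kept, and 1 per gene (highest mean) gave 11223 genes. All 12 arrays entered 1 model in limma 3.58.1 (R 4.3.3) with a mean per line and variances moderated with an intensity trend; adjusted p-values are Benjamini-Hochberg over all genes, two-sided. The code was tested on simulated data.

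The members, the other lists and the motifs were chosen with earlier results of these data known. In TB14 and TB13 against Trib1, values on every array are given for the 5 largest called rises and falls. Atf6 in TB14 is the exception, with mean and SD. In the other comparisons, means with SD or log2 differences are given. Other pathway genes are named from the 4 largest called changes of a list. Further values serve the members under discussion. Alternatives were the deposited scale, calibration (a quadratic curve per array through 18 hybridization controls), other filters, pseudocounts and variance models, averaged probe sets, line means, a replicate block and leaving out each array. Same-numbered arrays of different lines did not deviate together (12 correlations, -0.091 to 0.099), so no pairing was used. The number of arrays limits the precision. Protein sequence features were planned and are not analysed here. Promoters are RefSeq sequences of GRCm38.p6, searched in Python 3.11.15; figures were drawn with matplotlib 3.10.9.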

Additional observations from a re-analysis of the deposited data

Results flagged for a closer look

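In 4 of 99 sets of 4 arrays, 1 array lay far from the others by Dixon's criterion (the gap to the nearest array over the range), which chance alone would flag in about 1 of 20 sets. Replicate 2 of Trib1 read 923 for Pdia6, against 901 to 904 on the others, and 159 for Atf6, against 143 to 145. Replicate 3 of TB13 read 374 for Edem1, against 429 to 434. Replicate 4 of Trib1 read 31.1 for Derl3, against 33.9 to 34.5.

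For 28 of 33 genes the difference to Trib1 was not the same in the 2 lines, tested by the TB14 against TB13 contrast in limma after quantile scaling; the log2 values are TB14 minus TB13. In this contrast 80.1% of all genes were called, and 18 of the 28 kept the call and its direction under all 3 scalings. Among chaperones and co-factors they were -0.30 for Hyou1, 0.15 for Dnajb9, 0.14 for Dnajb11, 0.43 for Dnajc3, -0.16 for Sil1, 0.58 for Sdf2l1, 0.34 for Manf and 0.96 for Creld2. The lectin chaperone genes gave 0.12 for Calr and 0.074 for Canx. Isomerase genes gave 0.28 for P4hb, -0.31 for Pdia3, 0.11 for Pdia4, 0.48 for Pdia6 and 0.53 for Txndc5. The sensor genes gave -0.46 for Ern1, -0.37 for Xbp1 and -0.32 for Atf6. Degradation genes gave -0.71 for Herpud1, 0.92 for Syvn1, -0.24 for Sel1l, 0.15 for Edem2, 0.60 for Derl2, -0.99 for Derl3 and -0.47 for Os9, and channel genes 0.25 for Sec61a1, 0.16 for Sec61b and 0.29 for Sec62. The scale of the TB13 arrays moves with this contrast, and its part was not tested beyond the 3 scalings given above.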

How the results depend on the processing

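Scaling moved the TB13 results most. With the values as deposited, 4 members were higher and 28 lower in TB13 than in Trib1, 3 were higher in both lines together, and in TB14 against TB13 29 were higher and 4 lower. After calibration on the hybridization controls, 13 were higher and 9 lower in TB13, and 7 lower in both lines together. Averaging a gene's probe sets left 7 lower in TB14 against Trib1, beside 2252 of all 11223 genes. With line means as samples 0 were higher and 0 lower. In the TB14 against Trib1 comparison the counts stayed at 10 to 13 higher and 8 to 14 lower under all other settings. Over all genes, deposited values called 7135 lower in TB13 and 6271 in both lines and 7118 higher in TB14 against TB13; calibration gave 8284 higher and 1279 lower, 7909 and 1432, and 1473 and 7998 in the same comparisons; the stricter filter, with 6895 genes tested, gave 2523 higher in TB13, 2575 higher in both lines and 2413 lower in TB14 against TB13.

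As deposited, log2 differences changed sign in TB13 against Trib1 for Atf6 (-0.65), Dnajb11 (-0.64), Ern1 (-0.37), Herpud1 (-0.16), Hspa5 (-0.14) and Hyou1 (-0.20); in both lines for Canx (-0.039), Dnajb11 (-0.22), Ern1 (-0.22), Hspa5 (-0.053), Manf (-0.076), Pdia6 (-0.032), Sdf2l1 (-0.29) and Txndc5 (-0.29). In TB14 against TB13 they did so for Atf6 (0.37), Derl1 (0.62), Ern1 (0.29), Hsp90b1 (0.076), Hspa5 (0.18), Hyou1 (0.46), Os9 (0.15), Ppib (0.22), Sel1l (0.55) and Sil1 (0.62). After calibration they changed sign in TB13 for Canx (0.012), Dnajb9 (0.076), Edem1 (0.030), Os9 (0.079), Pdia6 (0.098), Ppib (0.024) and Sil1 (0.18), in both lines for Atf6 (0.078), Dnajb9 (0.064) and Sec61a1 (0.033), and in TB14 against TB13 for Dnajb9 (-0.024) and Edem1 (-0.087). With probe sets averaged they did so for Hspa5 (-0.0033) and Sec62 (0.044) in TB14, Atf6 (-0.26) and Txndc5 (0.035) in TB13, Sec61a1 (0.090) and Xbp1 (0.13) in both lines, and Atf6 (0.13), Hsp90b1 (0.16), Hyou1 (0.67) and Sel1l (0.026) in TB14 against TB13. The cause of these changes was not tested.

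Leaving out each array gave 11 to 11 higher and 10 to 11 lower in TB14, 8 to 10 higher and 18 to 19 lower in TB13, 10 to 12 higher and 16 to 19 lower in both lines, and 18 to 18 higher and 9 to 11 lower in TB14 against TB13. Signs changed near 0 for Derl3 in TB14 (-0.039 to 0.0022), Canx (-0.0092 to 0.0027), Atf6 (-0.053 to 0.078) and Pdia6 (-0.048 to 0.0013) in TB13, and Edem1 in TB14 against TB13 (-0.032 to 0.038). Ern1 in TB14 lost its call with each of 6 arrays left out in turn (highest adjusted p = 0.131), and Pdia3 in TB14 against TB13 lost it without some arrays (highest adjusted p = 0.0593). With the replicate number as a block, which labels and correlations did not bear out as pairs, 11 members were higher and 12 lower in TB14, and the fit changed no other count of members by more than 1.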

Other observations

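Probe sets of the members that entered no comparison were named after their values were seen. The dimmest probe set of Hyou1 averaged 106 in TB14, 15.6 in TB13 and 27.0 in Trib1, a TB14 against Trib1 log2 difference of 1.58, where the one used above gave 0.25. The dimmest of Xbp1 averaged 148 in TB14, 395 in TB13 and 175 in Trib1, which keeps the order of the lines seen in the others with a TB13 against Trib1 log2 difference of 1.12. For Edem1 the second probe set averaged 436 in TB14, 263 in TB13 and 443 in Trib1, a TB13 against Trib1 log2 difference of -0.73, against -0.12 in the one used. A second Derl1 probe set differed from Trib1 by -0.31 in TB14 and 0.19 in TB13. The positions of these probes on the transcripts were not used here.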
